A study of Mus musculus with 8 samples.

Results

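Type I interferon antiviral genes form the set described here: 43 genes, listed by symbol, that encode parts of the transcription factor ISGF3, antiviral effectors, RNA sensors and ubiquitin-like modifiers. All 43 were found by symbol among the 41730 rows of the count table, and 41 of them passed the filter on low counts, as did 13290 rows in all. Counts came from RNA sequencing of CD8+ T cells of OT-I mice, whose T cell receptor transgene recognises a peptide of ovalbumin, isolated by FACS once they had been cultured with peptide-loaded dendritic cells grown from bone marrow. In one condition the cultures held 2 uM RGX-104, a synthetic agonist of the liver X receptors (LXR), and in the control condition they held DMSO. The dendritic cells were LXR-/- in both conditions, the labels give the T cells no genotype other than OT-I, and each condition had 4 libraries.

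Type I interferons bind the receptor IFNAR1/IFNAR2, whose kinases JAK1 and TYK2 activate the factor ISGF3, of which STAT2 and IRF9 are parts. ISGF3 binds interferon-stimulated response elements near the start sites of antiviral genes. Interferon gamma acts through another receptor, in part by way of IRF1, and induces many of the same genes, and activated CD8 T cells both make interferon gamma and respond to both kinds of interferon.

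Libraries held between 30642316 and 37714355 counts. The RGX-104 columns of the table name their condition but not their sample, so RGX-104 libraries are numbered by column. Libraries of a condition differed by 1.36 to 6.77 times counting noise (chi-square per degree of freedom), so they were not evenly spaced. RGX-104 libraries 2 and 3 were the closest pair, and RGX-104 libraries 1 and 4 the next (2.33). Control library 4 lay farthest from control libraries 1 and 2 (6.74 and 6.77). Abca1, an LXR target, was at 125 ± 6.21 CPM with RGX-104 and 1.72 ± 0.295 CPM in control libraries (SD, n = 4 each). CPM, the unit used throughout, are counts relative to the library total after TMM scaling.

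Markers of the labelled cell type were present, with Cd8a at 809 ± 6.26 CPM with RGX-104 and 877 ± 18.1 CPM in control libraries (SD, n = 4 each). Of 10 listed CD8 T cell markers 9 were tested, and 4 fell and 1 rose, against 4.13% and 4.82% of all tested genes. Log2 changes of those that fell were -0.18 for Cd247, -0.14 for Cd3e and -0.12 each for Cd8a and Cd8b1. Lck rose, with a log2 change of 0.10. The summed level of the list was 3375 to 3426 CPM with RGX-104 and 3447 to 3564 CPM in control libraries. Cd2, the marker not tested, had at most 6 counts in any library. It has 1 further row for a copy on an alternate scaffold, so its low counts are not read as low expression. Of the marker lists for other cells, 11 transcripts were at or near 0, namely Lyz2, Csf1r, Spi1, Tyrobp, Fcer1g, Itgam, Adgre1, C1qa, Siglech, Ly6d and Ms4a1, which summed to between 24 and 32 counts in an RGX-104 library and to between 22 and 28 counts in a control library. These were picked from the lists for their low counts, and other markers of the same lists were detected. Cd68 was at 4.77 ± 0.382 CPM with RGX-104 and 5.08 ± 0.548 CPM in control libraries, Cd79b at 4.23 ± 0.273 CPM with RGX-104 and 4.26 ± 0.588 CPM in control libraries, and Tcf4 at 7.08 ± 0.873 CPM with RGX-104 and 7.98 ± 0.356 CPM in control libraries (SD, n = 4 each). NK cell markers summed to 131 to 144 CPM with RGX-104 and 107 to 116 CPM in control libraries, and of these Klrk1, which activated CD8 T cells also express, rose (edgeR adjusted p = 0.0361).

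Markers of dendritic cells, the other cells of the culture, were in part higher with RGX-104. Of 13 listed 9 were tested, and 2 rose and 1 fell, against 4.82% and 4.13% of all tested genes. The median log2 fold change of those tested was 0.28. Ccl22 was at 4.83 ± 0.324 CPM with RGX-104 and 2.05 ± 0.248 CPM in control libraries, and Cd74 at 33.1 ± 0.983 CPM with RGX-104 and 26.5 ± 1.18 CPM in control libraries (SD, n = 4 each). Both rose, by 1.24 and 0.32 on the log2 scale (edgeR adjusted p = 1.45e-08 and 6.12e-06), while Zbtb46 and Fscn1, at log2 changes of 0.37 and 0.28, did not pass (edgeR adjusted p = 0.0552 and 0.0669). Ccr7, which T cells also express, fell (634 ± 11.6 CPM with RGX-104 and 682 ± 18.8 CPM in control libraries) and made up most of the list's sum of 763 to 782 CPM with RGX-104 and 776 to 827 CPM in control libraries. Cst3 was at 48.8 ± 0.485 CPM with RGX-104 and 48.1 ± 2.32 CPM in control libraries, and Batf3 at 39.1 ± 4.52 and 37.9 ± 3.20 CPM in the same order (SD, n = 4 each). Their log2 changes were 0.02 and 0.04, and neither passed (edgeR adjusted p = 0.817 and 0.842). The scarce Itgax and Flt3, which enter the median above with log2 changes of 0.25 ± 0.23 and 0.37 ± 0.43 (SE), did not pass either. Xcr1, at 4 to 7 counts per library, was not tested. Clec9a had at most 1 count in any library. H2-Aa and H2-Ab1 had 0 counts, but each has 3 further rows for copies on alternate scaffolds. The part of these markers in the results below was not tested.

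Start sites of some of the antiviral genes carry a recognisable element. The core of the interferon-stimulated response element, read as GAAA, any 2 bases and GAAA again on either strand, was searched in RefSeq windows (GRCm38.p6) reaching from 250 bases before to 50 bases after each start. It was found for 14 of the 31 members that have a window, against 3.99% of all 27025 genes with windows. The sequences below show a stretch of 100 bases that holds the element, upstream of the start of 4 members that were lower with RGX-104 and of 3 that were not called, 5′ to 3′ on the gene's strand, with every base of a match in capitals and with the position of the end of each stretch, or for Stat2 of its first base, given in bases relative to the start. Matches may overlap, as in Isg15, where 3 of them form 1 run. Ifit1, Rsad2 and Stat2 carry the element in the reverse orientation. For Stat2 the GENCODE M21 gene model starts further downstream, at position 128270559, and bases just after the RefSeq start were not found in its transcripts. The Stat2 position therefore holds for the RefSeq start only.
Isg15 (lower), ending at -1, chr4:156200819-156200918, minus strand: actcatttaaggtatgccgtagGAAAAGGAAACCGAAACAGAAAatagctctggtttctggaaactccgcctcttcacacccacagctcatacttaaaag
Bst2 (lower), ending at -51, chr8:71537523-71537622, minus strand: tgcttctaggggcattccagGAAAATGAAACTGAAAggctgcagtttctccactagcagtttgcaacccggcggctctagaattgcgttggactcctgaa
Ifit1 (lower), ending at -21, chr19:34640769-34640868, plus strand: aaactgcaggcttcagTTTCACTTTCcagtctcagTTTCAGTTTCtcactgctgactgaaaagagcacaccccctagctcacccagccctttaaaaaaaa
Oas3 (lower), ending at -3, chr5:120777662-120777761, minus strand: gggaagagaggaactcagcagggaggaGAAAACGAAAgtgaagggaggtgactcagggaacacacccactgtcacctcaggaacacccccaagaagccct
Oas1a (not called), ending at -1, chr5:120907526-120907625, minus strand: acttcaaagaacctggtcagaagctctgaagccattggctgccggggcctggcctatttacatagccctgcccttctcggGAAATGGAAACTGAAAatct
Rsad2 (not called), ending at -51, chr12:26456503-26456602, minus strand: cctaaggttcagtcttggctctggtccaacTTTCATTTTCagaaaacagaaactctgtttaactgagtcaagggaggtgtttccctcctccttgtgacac
Stat2 (not called), starting at -250, chr10:128270248-128270347, plus strand: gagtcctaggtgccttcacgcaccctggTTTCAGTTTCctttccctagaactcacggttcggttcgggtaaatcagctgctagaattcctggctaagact

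Antiviral genes were lower with RGX-104 in small steps and in many roles at once. Of the 41 tested members 22 fell at an adjusted p under 0.05 (edgeR quasi-likelihood test, Benjamini-Hochberg over all tested genes), where 4.13% of all tested genes fell. None rose, where 4.82% of all tested genes did (8.95% changed in either direction), and of the 19 members not called, 6 had an unadjusted p under 0.05, all of them with lower values. DESeq2 and limma-voom also called 0 members higher. The median log2 fold change over the tested members was -0.19, against 0.00 over all tested genes. Among the 22 that fell it was -0.21, where members fell by 13.5%, and individual falls ran from 0.11 to 0.97 on the log2 scale. Rsad2 and Ifi44 reached the filter level in all 4 control libraries but in only 3 and 1 RGX-104 libraries, Ifit3 reached it in 1 RGX-104 and 3 control libraries, and none of these was called. In such bulk samples fewer responding cells and less RNA per cell cannot be told apart.

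RGX-104 libraries lay entirely below control libraries in 23 of the 41 tested members, where 7.45% of all tested genes did so, and entirely above them in 0, where 7.07% did. These 23 were 21 of the called members together with Trim25 and Adar. The called member whose libraries overlapped was Dhx58. The count of called members fell to 12 without control library 3 and to 14 without RGX-104 library 4, and against a fold of 1.2 it was 2, namely Isg15 and Zbp1. Control library 3 held the highest control value in 11 of the 22 called members and RGX-104 library 1 the lowest RGX-104 value in 10. Isg15, Zbp1, Oasl1, Usp18, Bst2, Trim30a, Parp9, Parp14, Dtx3l, Ifi27l2a, Samhd1 and Lgals3bp, 12 in all, kept their call under every alternative tried in which they were tested, other than the test against that fold, in which all but Isg15 and Zbp1 lost it.

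**Figure D1:**
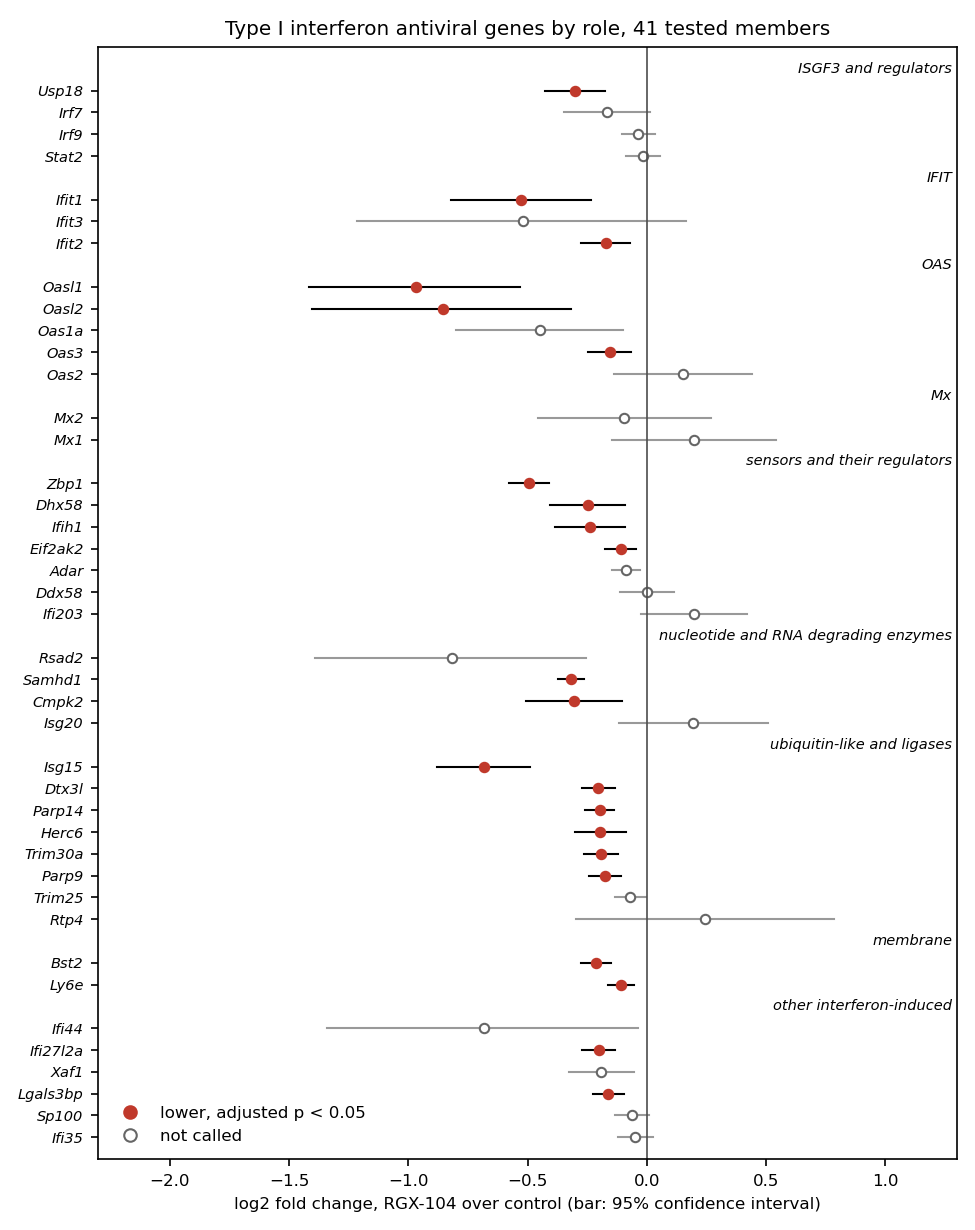
Log2 fold change, RGX-104 over control, of each of the 41 tested members by role, with 95% confidence intervals from the edgeR fit (4 libraries per condition). Filled points mark the 22 members called lower; open points were not called, and 6 of the 41 points lie above 0.

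Abundant members carried most of the fall in transcripts, and scarce members the largest folds. Both follow in part from level, since a fall in CPM scales with CPM and scarce genes are called only at large folds. Standard errors of the log2 change were 0.21 for Oasl1 and 0.26 for Oasl2, against 0.03 each for Samhd1 and Ly6e. Among the 18 members of mean log2 CPM of at least 5, 12 fell, where 6.12% of tested genes at that level did. Of the 23 below that level 10 fell, where 2.50% of such genes did. Per kilobase of the longest transcript the highest mean levels were those of Ly6e, Bst2 and Ifi27l2a, at 270, 206.5 and 142.5 CPM per kilobase with RGX-104 and 291, 240 and 164 CPM per kilobase in control libraries. Summed over the 43 members, levels were 2634, 2691, 2693 and 2647 CPM in the RGX-104 libraries, against 2955, 2966, 3023 and 2979 CPM in the control libraries, so the groups did not overlap. The mean of the sums was 10.6% lower with RGX-104, and Samhd1 alone made up 22.5% of that net fall and Ly6e 15.1%.

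**Figure D2:**
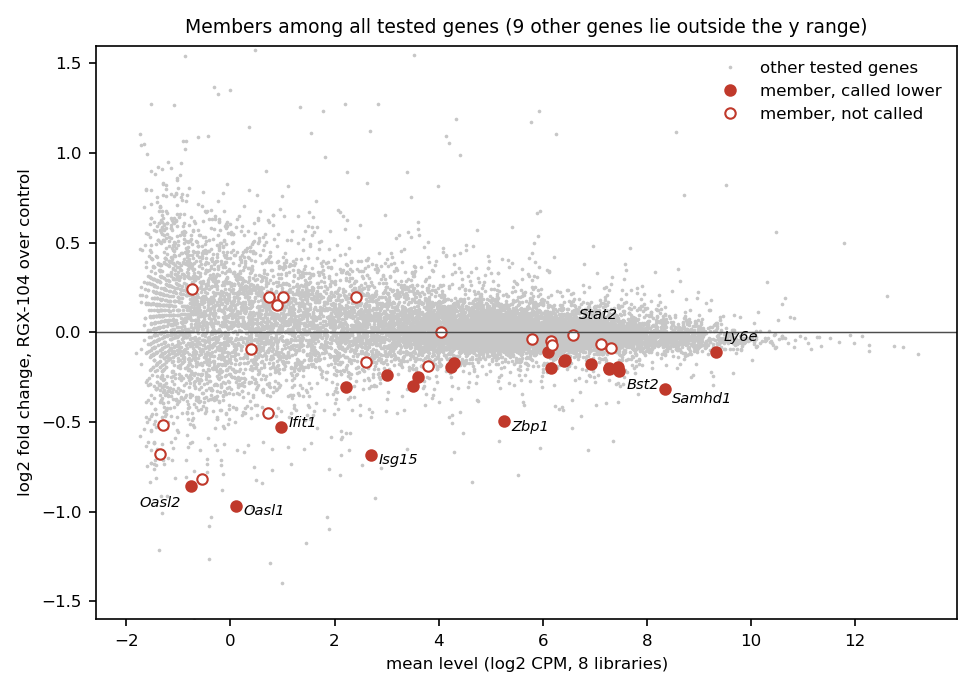
Log2 fold change (RGX-104 over control) against mean log2 CPM over the 8 libraries for all 13290 tested genes, of which 9 non-members lie outside the plotted range. Members called lower (filled) run from a mean log2 CPM of -0.75 (Oasl2) to 9.32 (Ly6e) and reach furthest from 0 among scarce genes such as Oasl1.

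Stat2 and Irf9, which encode parts of ISGF3, showed no called change. Stat2 was at 98.8, 93.0, 93.9 and 96.7 CPM in the RGX-104 libraries and at 102.5, 97.9, 94.2 and 91.9 CPM in the control libraries. Irf9 was at 56.6, 53.6, 53.4 and 55.6 CPM with RGX-104 and at 55.1, 55.7, 56.6 and 57.2 CPM in control libraries. The groups overlapped in both. The 95% confidence intervals of their log2 changes ran from -0.09 to 0.05 for Stat2 and from -0.11 to 0.03 for Irf9, and neither passed (edgeR adjusted p = 0.840 and 0.573).

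Upstream of ISGF3 the receptor chains differed in their calls. Ifnar2 fell, with 44.7, 47.9, 47.7 and 46.0 CPM in RGX-104 libraries and 50.9, 50.2, 50.4 and 50.9 CPM in control libraries (log2 change -0.12 ± 0.04, SE; edgeR adjusted p = 0.0314). Ifnar1 was at 118 ± 3.06 CPM with RGX-104 and 115 ± 3.76 CPM in control libraries, and the kinase genes Jak1 and Tyk2 at 391 ± 12.04 and 99.9 ± 1.66 CPM with RGX-104 and 387 ± 10.7 and 94.8 ± 3.65 CPM in control libraries (SD, n = 4 each). None of these 3 passed (edgeR adjusted p = 0.545, 0.858 and 0.141), although every RGX-104 library lay above every control library for Tyk2. Of 13 genes of receptor and proximal signalling, 3 fell and 0 rose, against 4.13% and 4.82% of all tested genes, the others that fell being Stat4 (-0.18 ± 0.03) and the phosphatase gene Ptpn11 (-0.11 ± 0.03; log2, SE). Whether the change in Ifnar2 differed from that in Ifnar1 was not tested.

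**Figure D3:**
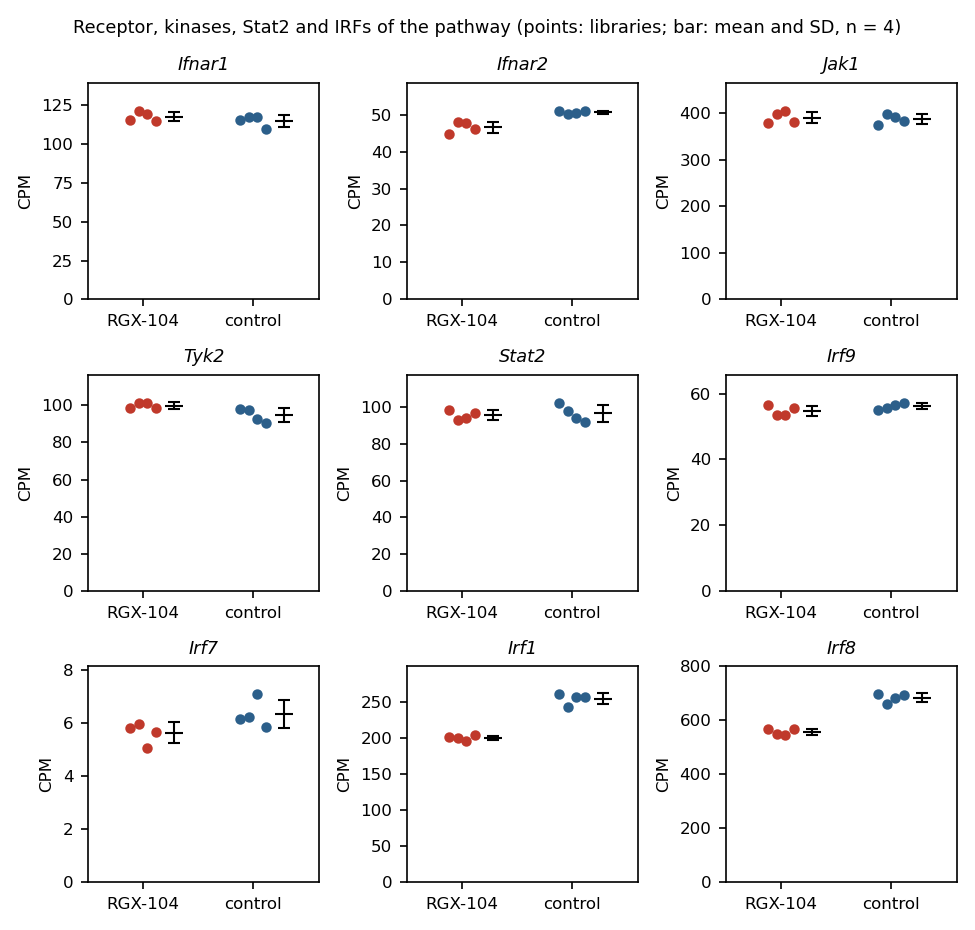
CPM in each library (points) with mean and SD (n = 4) for genes of the receptor, its kinases, Stat2 and interferon regulatory factors, RGX-104 at the left of each panel and control at the right. Irf1, Irf8 and Ifnar2 lie lower in every RGX-104 library than in any control library, while the groups overlap for Stat2, Irf9 and Irf7. Tyk2, which was not called, lies higher in every RGX-104 library than in any control library.

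Irf7, the interferon-induced factor that amplifies type I interferon production, was at 5.83, 5.97, 5.07 and 5.69 CPM with RGX-104 and at 6.17, 6.25, 7.09 and 5.85 CPM in control libraries. The groups overlapped and the gene did not pass (edgeR adjusted p = 0.263). Of 7 tested other regulatory factor genes 3 fell, Irf1 (-0.34 ± 0.03), Irf2 (-0.17 ± 0.05) and Irf8 (-0.29 ± 0.03; log2, SE), and 0 rose, against 4.13% and 4.82% of all tested genes. For Irf2 the groups overlapped.

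Usp18, whose product removes ISG15 from proteins and also restrains signalling at the receptor, fell. It was at 9.81, 10.4, 9.87 and 10.3 CPM with RGX-104 and at 13.1, 11.6, 12.6 and 12.5 CPM in control libraries, a log2 change of -0.30 ± 0.06 (SE; edgeR adjusted p = 0.00171). The lowest control library stood above all 4 RGX-104 libraries.

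Type I interferon transcripts were barely detected. The 18 genes of that family listed had at most 3 counts each in any library and together 0 to 1 counts in an RGX-104 library and 0 to 4 in a control library. For a single gene at 0 counts the detection floor is 3 counts, so lower levels could not be seen at this depth. The counts cover the sorted T cells, and interferon made by the dendritic cells in the culture was not measured. Ifng, the type II interferon gene, was at 89.0, 64.2, 64.0 and 88.3 CPM with RGX-104 and at 30.2, 32.7, 33.5 and 38.8 CPM in control libraries. Every RGX-104 library lay above every control library, and the gene rose (log2 change 1.17 ± 0.16, SE; edgeR adjusted p = 0.00632).

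Among genes of ubiquitin-like modification Isg15 changed most. Isg15 encodes the ubiquitin-like protein that is joined to other proteins during an interferon response. It was at 5.73, 4.56, 4.15 and 5.28 CPM with RGX-104 and at 8.06, 7.58, 8.58 and 7.39 CPM in control libraries. The groups did not overlap, and Isg15 fell by 37.8%, a log2 change of -0.68 ± 0.09 (SE; edgeR adjusted p = 1.17e-05) that kept its call in all 19 alternatives tried. Herc6, which encodes the main ligase for ISG15 in mice, was at 18.6, 17.9, 17.4 and 16.5 CPM with RGX-104 and at 19.8, 21.4, 20.6 and 18.8 CPM in control libraries. The groups came close without overlapping, and its change of -0.20 ± 0.05 (log2, SE; edgeR adjusted p = 0.0174) lost its call in 5 alternatives. Of its 50-base stretches 23.8% also occur in Gm45193. Ube2l6, the conjugating enzyme of the same pathway and not a member, fell by 0.53 on the log2 scale, and Uba7, its activating enzyme, did not pass (edgeR adjusted p = 0.248).

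Dtx3l, Parp9 and Parp14 lie beside each other on chromosome 16 and encode a ubiquitin ligase, its ADP-ribosyltransferase partner and a related enzyme. Dtx3l was at 139.6, 151, 150.1 and 137 CPM with RGX-104 and at 159.8, 169.8, 169 and 167 CPM in control libraries. Parp9 was at 114, 116, 119.7 and 107 CPM with RGX-104 and at 126, 127, 132 and 131 CPM in control libraries. Parp14 was at 142, 144, 144 and 143 CPM with RGX-104 and at 172, 166, 161 and 159 CPM in control libraries. All 3 fell by close amounts without overlap of the groups, with log2 changes of -0.20 ± 0.03, -0.18 ± 0.03 and -0.20 ± 0.03 (SE; edgeR adjusted p = 0.00013, 7.54e-04 and 2.94e-05). Dtx3l and Parp9 face opposite ways and share 458 exonic bases, so without a stated strand setting some of their reads cannot be told apart.

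Trim30a, a member of the tripartite motif ligase family, was at 169.5, 158, 162 and 159 CPM with RGX-104 and at 174, 180.4, 197 and 189 CPM in control libraries. It fell by 0.19 on the log2 scale (edgeR adjusted p = 5.63e-04), and 6.53% of its 50-base stretches also occur in Trim30d. Trim25, a ligase that acts on the RNA sensor RIG-I, was at 70.8 ± 1.34 CPM with RGX-104 and 74.3 ± 1.19 CPM in control libraries (SD, n = 4 each) and did not pass (edgeR adjusted p = 0.185). Rtp4, which restrains interferon signalling in mice, was scarce at 0.595 ± 0.211 CPM with RGX-104 and 0.498 ± 0.0587 CPM in control libraries and did not pass.

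IFIT genes, which encode RNA-binding proteins that block translation of viral RNA, lie together on chromosome 19. Ifit1 was at 1.85, 1.41, 1.52 and 1.44 CPM with RGX-104 and at 2.01, 2.21, 2.51 and 2.21 CPM in control libraries. Ifit2 was at 17.5, 19.4, 18.9 and 17.5 CPM with RGX-104 and at 19.9, 20.8, 21.5 and 20.6 CPM in control libraries. Both fell without overlap of the groups, by 0.53 and 0.17 on the log2 scale (edgeR adjusted p = 0.0180 and 0.0276), and lost their calls in 6 and 8 of the 19 alternatives. Ifit1 shares 7.13% of its 50-base stretches with Ifit1bl1 and Ifit1bl2.

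Ifit3 was at 0.421, 0.255, 0.278 and 0.188 CPM with RGX-104 and at 0.430, 0.472, 0.221 and 0.512 CPM in control libraries. The groups overlapped and it did not pass (edgeR adjusted p = 0.378). Ifit3b had 1 to 4 counts in every library and was not tested. Of 50-base stretches in the longest Ifit3 transcript 51.2% also occur in Ifit3b, so low counts of this pair are not read as low expression.

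OAS genes encode enzymes and related proteins that respond to double-stranded RNA, the enzymes making oligoadenylates that activate RNase L. Oas3, the most abundant of them by counts, was at 73.1, 86.6, 83.9 and 82.4 CPM with RGX-104 and at 87.5, 94.4, 93.0 and 88.4 CPM in control libraries. Oasl1, whose product lacks that enzyme activity and in mice restrains production of IRF7, was at 0.680, 0.905, 0.402 and 0.691 CPM with RGX-104 and at 1.63, 1.18, 1.32 and 1.16 CPM in control libraries. Oasl2 was at 0.356, 0.424, 0.371 and 0.346 CPM with RGX-104 and at 0.889, 0.472, 0.773 and 0.593 CPM in control libraries. All 3 fell without overlap of the groups, with log2 changes of -0.16 ± 0.04, -0.97 ± 0.21 and -0.85 ± 0.26 (SE; edgeR adjusted p = 0.0295, 0.00345 and 0.0402). Oas3 and Oasl2 each lost their call in 9 alternatives.

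Oas1a was at 1.42, 1.19, 1.21 and 1.54 CPM with RGX-104 and at 1.52, 2.45, 1.79 and 1.56 CPM in control libraries, and the groups overlapped at the edge (edgeR adjusted p = 0.105). Of its 50-base stretches 57.6% also occur in Oas1b or Oas1g. Oas2 was at 1.90 ± 0.149 CPM with RGX-104 and 1.71 ± 0.179 CPM in control libraries (SD, n = 4 each) and did not pass (edgeR adjusted p = 0.565). The ratio of Oas3 to Oas2 counts averaged 43.2 ± 5.48 with RGX-104 and 53.3 ± 4.26 in control libraries, and that of Oasl1 to Oas2 averaged 0.350 ± 0.0968 and 0.779 ± 0.147 in the same order (SD, n = 4 each). Each was lower in all 4 RGX-104 libraries than in any control library, as a description only, since these ratios were picked after their values were seen.

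Mx1 and Mx2, interferon-induced GTPase genes that RefSeq lists as transcribed pseudogenes in this mouse genome, showed no called change. Mx1 was at 2.36, 2.35, 1.64 and 2.07 CPM with RGX-104 and at 1.43, 2.30, 2.18 and 1.46 CPM in control libraries. Mx2 was at 1.22 ± 0.245 CPM with RGX-104 and 1.297 ± 0.154 CPM in control libraries (SD, n = 4 each), and the groups overlapped in both (edgeR adjusted p = 0.524 and 0.804).

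**Figure D4:**
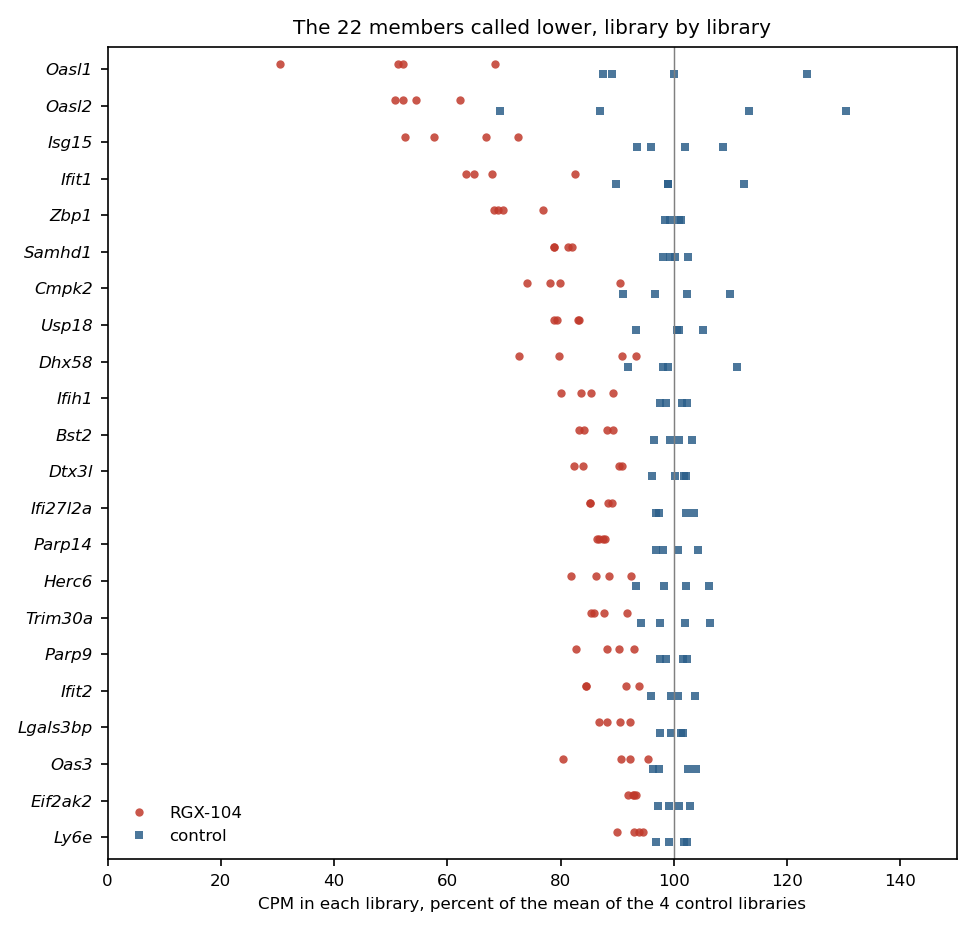
CPM of each library as a percent of the mean of the 4 control libraries for the 22 members called lower, ordered by log2 fold change, with RGX-104 (circles) above control (squares) in each row. The groups are separate in 21 of the 22 rows and overlap for Dhx58.

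RNA sensors of the RIG-I family differed in their calls. Ifih1, encoding MDA5, was at 7.19, 7.67, 7.33 and 6.88 CPM with RGX-104 and at 8.72, 8.37, 8.47 and 8.79 CPM in control libraries. Dhx58, encoding their regulator LGP2, was at 9.48, 10.4, 12.2 and 11.9 CPM with RGX-104 and at 12.8, 12.9, 14.5 and 11.99 CPM in control libraries. Ddx58, encoding RIG-I, was at 15.2, 16.7, 17.5 and 16.7 CPM with RGX-104 and at 15.7, 17.4, 16.6 and 16.5 CPM in control libraries. Ifih1 and Dhx58 fell by 0.24 and 0.25 on the log2 scale (edgeR adjusted p = 0.0336 and 0.0409), calls lost in 10 and 11 alternatives, whereas the 95% confidence interval for Ddx58 ran from -0.11 to 0.11. The ratios of Ifih1 and of Dhx58 to Ddx58 counts averaged 0.440 ± 0.0295 and 0.663 ± 0.0470 with RGX-104 and 0.520 ± 0.0315 and 0.790 ± 0.0699 in control libraries (SD, n = 4 each). These ratios too were picked after their values were seen, so they are given as a description only.

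Zbp1, a sensor of Z-form nucleic acids that can trigger necroptosis, fell in all fits tried. It was at 30.2, 34.0, 30.9 and 30.5 CPM with RGX-104 and at 43.6, 43.9, 44.8 and 44.6 CPM in control libraries. The groups did not overlap, and Zbp1 fell by 29.0%, a log2 change of -0.49 ± 0.04 (SE; edgeR adjusted p = 1.99e-09) that kept its call in all 19 alternatives tried. Eif2ak2, the kinase PKR that halts translation on double-stranded RNA, was at 66.4, 66.5, 66.8 and 65.7 CPM with RGX-104 and at 69.6, 72.2, 73.6 and 70.9 CPM in control libraries. It fell by 0.11 on the log2 scale (edgeR adjusted p = 0.0279), a call lost in 9 alternatives.

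Adar, an RNA-editing enzyme that limits sensing of the cell's own RNA, was at 150.4, 154, 157 and 156 CPM with RGX-104 and at 169.9, 167, 159 and 161 CPM in control libraries. The groups did not overlap, but it did not pass (edgeR adjusted p = 0.0628). Its exons overlap those of Chrnb2 on the opposite strand over 16.8% of their length. The DNA-sensor relative Ifi203 was at 5.61 ± 1.01 CPM with RGX-104 and 4.90 ± 0.311 CPM in control libraries (SD, n = 4 each; edgeR adjusted p = 0.285). Ifi204 had 1 to 3 counts per library and was not tested. Of the 50-base stretches of Ifi203 and Ifi204, 10.7% and 30.2% also occur in other genes. Both genes have 2 further rows for copies on alternate scaffolds, so their low counts are not read as low expression.

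A wider list of nucleic acid sensors, adaptors, kinases and factors around type I interferon induction had 1 called gene among 17 tested. This was Aim2, a DNA sensor that rose by 0.17 ± 0.04 (log2, SE; edgeR adjusted p = 0.00372). Not all listed genes act downstream of the sensors above, and the rise of Aim2 is not read as a change of the pathway. Mavs, Sting1, Cgas, Tbk1 and Irf3 were among the 16 that did not pass. Of all tested genes 8.95% changed in either direction.

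Genes of nucleotide and RNA metabolism were led by Samhd1, a hydrolase that depletes the nucleotides needed for viral DNA synthesis. Samhd1 was at 283, 295, 292 and 283 CPM with RGX-104 and at 353, 368, 357 and 360.3 CPM in control libraries. It fell by 0.32 ± 0.03 (log2, SE), or 19.7%, with no overlap of the groups (edgeR adjusted p = 2.85e-09). Cmpk2, a mitochondrial nucleotide kinase, was at 3.75, 4.58, 3.96 and 4.05 CPM with RGX-104 and at 4.90, 5.19, 5.57 and 4.61 CPM in control libraries. Its upper RGX-104 value nearly met its lowest control value, and its call (edgeR adjusted p = 0.0485) was lost in 13 of 19 alternatives, the most of any called member.

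Rsad2, whose product viperin makes a chain-terminating nucleotide, lies 12751 bases from Cmpk2. It was at 0.777, 0.311, 0.247 and 0.471 CPM with RGX-104 and at 0.660, 0.855, 0.883 and 0.755 CPM in control libraries. RGX-104 library 1 lay among the control libraries and the other 3 below them (edgeR adjusted p = 0.0636), and without that library the gene was called lower (edgeR adjusted p = 0.00862). Without RGX-104 library 2, 3 or 4 it was not (edgeR adjusted p = 0.199, 0.217 and 0.101), and over the libraries left out its log2 change ran from -1.20 to -0.62. With all 8 libraries Rsad2 was called lower by limma-voom (adjusted p = 0.00912) and by edgeR with no filter (adjusted p = 0.0305). DESeq2 did not call it (adjusted p = 0.132). The exonuclease gene Isg20 was at 1.73 ± 0.286 CPM with RGX-104 and 1.51 ± 0.0818 CPM in control libraries (SD, n = 4 each) and did not pass (edgeR adjusted p = 0.482).

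Transcripts of both genes for membrane proteins in the set fell. Bst2, or tetherin, which holds budding virions at the cell surface, was at 167, 158, 159.7 and 169 CPM with RGX-104 and at 192, 183, 188 and 196 CPM in control libraries. Ly6e, encoding a lipid-anchored surface protein, was at 597, 623, 628 and 617 CPM with RGX-104 and at 658, 643, 679 and 676 CPM in control libraries. The groups were separate in both, and the genes fell by 13.8% and 7.18% (edgeR adjusted p = 1.79e-05 and 0.00987). Ly6e lost its call without control library 3 and with 1 surrogate variable.

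Of the remaining interferon-induced members Ifi27l2a and Lgals3bp fell. Ifi27l2a was at 64.7, 64.6, 67.0 and 67.6 CPM with RGX-104 and at 73.9, 78.6, 77.5 and 73.4 CPM in control libraries. Lgals3bp, encoding a secreted glycoprotein that binds galectins, was at 77.4, 80.6, 78.5 and 82.3 CPM with RGX-104 and at 88.7, 86.9, 90.6 and 90.2 CPM in control libraries. Neither gene's groups overlapped, and the genes fell by 13.1% and 10.6% (edgeR adjusted p = 1.62e-04 and 9.58e-04). Xaf1, Ifi35, Sp100 and Ifi44 did not pass (edgeR adjusted p = 0.0711, 0.445, 0.282 and 0.196), with log2 changes of -0.19, -0.05, -0.06 and -0.68. Xaf1 was at 12.96 ± 0.720 CPM with RGX-104 and 14.8 ± 1.404 CPM in control libraries (SD, n = 4 each). Ifi44 was scarce, at 0.253 ± 0.0704 CPM with RGX-104 and 0.408 ± 0.0677 CPM in control libraries, and Sp100, a nuclear body gene, was at 136 ± 5.92 CPM with RGX-104 and 142 ± 5.77 CPM in control libraries. Ifi35 was at 70.6 ± 2.87 CPM with RGX-104 and 73.0 ± 2.701 CPM in control libraries. Groups overlapped in all 4, and 16.8% of Ifi35 exon length lies opposite Gm11626 while 8.68% of Sp100 stretches recur in other genes.

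Among the members, the response element core was in the start windows of 7 of 15 called members that have one and of 6 of 15 tested members not called. The gamma-activated site TTCNNNGAA, which reads the same on both strands, was in 4 of 15 and 4 of 15, and in 9.55% of all genes with windows. Matches are descriptions of letters in the window, not of binding. Usp18, Zbp1, Parp9, Parp14, Dhx58, Ly6e, Ifi27l2a, Mx1, Mx2, Oas2, Rtp4 and Ifi204 had no window in the table used.

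**Figure D5:**
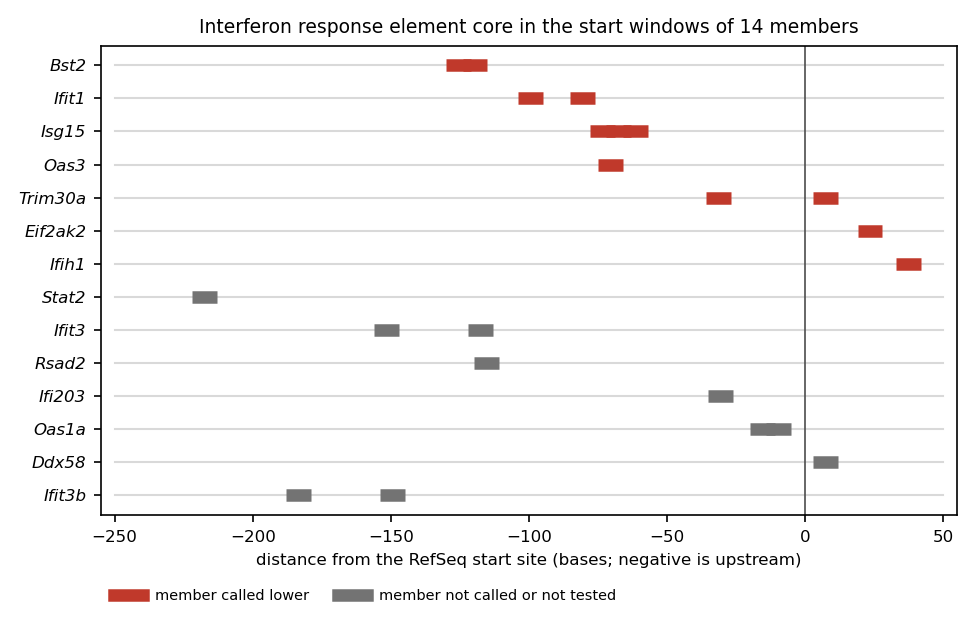
Distance in bases from the RefSeq start site of each match to the response element core in the 14 members that hold one, with members called lower in red and members not called or not tested in grey. All windows of a gene are drawn on 1 line, so the 2 matches of Trim30a belong to different starts and matches of both colours lie on either side of the start.

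Further interferon-induced genes outside the set were tested in the same fit. Of 51 tested of 64 listed, 14 fell and 2 rose, against 4.13% and 4.82% of all tested genes, with a median log2 fold change of -0.06, against 0.00 over all tested genes. The largest falls on the log2 scale were those of Ifitm3 (-0.61), which restricts viral entry, Ube2l6 (-0.53), Ifi213 (-0.41) and Phf11b (-0.39). Parp12 (-0.34) and Parp11 (-0.29), relatives of Parp9 and Parp14, also fell, as did the ligase genes Trim21 (-0.20) and Trim12c (-0.15). Lgals9 (-0.16), Shisa5 (-0.12), Ogfr (-0.12), the nuclear body gene Pml (-0.12) and the proteasome genes Psme1 (-0.12) and Psmb10 (-0.10) fell less. Tor3a and Nlrc5, a regulator of class I antigen presentation genes, rose by 0.24 ± 0.07 and 0.11 ± 0.03 (log2, SE). The groups overlapped for Tor3a and, among the genes that fell, for Ifitm3, Trim12c and Ogfr. Ifitm3 was scarce, at 1.16 ± 0.277 CPM with RGX-104 and 1.77 ± 0.238 CPM in control libraries (SD, n = 4 each). Of the 12 genes with a row that were not tested, 8 have scaffold copies, Tap1 and Psmb8 among them.

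Interferon gamma, its receptor and the GTPases and other genes it induces had 17 of 22 tested genes lower and 1 higher, Ifng, against 4.13% and 4.82% of all tested genes, with a median log2 fold change of -0.41. Both receptor chains fell, Ifngr1 by 0.42 and Ifngr2 by 0.31 on the log2 scale, as did the receptor kinase Jak2 by 0.25. Among GTPases of host defence, Gbp10 fell by 0.67, Iigp1 by 0.66, Gbp2 and Tgtp1 by 0.60 each, Irgm1 by 0.56, Gbp7 by 0.53, Gbp5 by 0.47, Gbp6 by 0.43, Irgm2 by 0.41, Gbp4 by 0.39, Gvin1 by 0.36, Gbp3 by 0.31 and Gbp9 by 0.18, while the chemokine gene Cxcl10 fell by 1.099 (all log2). Several of these GTPase genes have close relatives among which reads could be split. Gbp8, Gbp11, Cxcl9 and Ciita did not pass. The corresponding values over the 41 tested antiviral members were 22 lower, 0 higher and -0.19. Whether these lists differ was not tested.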

How the data were processed

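For 8 libraries the authors deposited raw counts, whole numbers per gene in 1 unnormalized table. CPM were computed here from these counts and TMM-scaled totals. Per the submitters' processing notes, cutadapt 2.10, STAR 2.7.5, R 4.1.0, DESeq2 1.4 and build GRCm38 were used; for the counting step, the annotation and the strand setting, the sources used here give nothing. Genes were filtered with filterByExpr (minimum count 10, minimum total 15). All tested genes were fitted with the quasi-likelihood test of edgeR 4.0.16 in R 4.3.3 (TMM scaling, robust fitting, treatment as the only term), and calls were made at a Benjamini-Hochberg adjusted p under 0.05. The fit was tested on simulated data, where false calls exceeded the nominal rate and changes as small as most of those reported here were recovered only in part, so calls near the threshold and members not called are both uncertain. Standard errors came from the F statistic. Alternatives were DESeq2 1.42.0, limma-voom (limma 3.58.1), 1 surrogate variable (sva 3.50.0), other scalings, filters and thresholds, and leaving out each library.

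The members and lists were chosen with earlier results of these data known. By the naming rule every member is accounted for, values in every library are given for called members and a listed choice of others, the remaining members are given by level, and pathway lists by counts with the called genes named. Some genes of the pathway and marker lists are not reported here. The log2 fold changes of Oasl2 and of other scarce genes carry wide errors. The labels do not state whether libraries of a condition are separate cultures or mice; p-values here reflect the spread among these libraries alone, and that spread may be technical. Exon overlaps and shared 50-base stretches came from GENCODE M21 gene models, and start windows and their sequences from RefSeq (GRCm38.p6), which matched 31 of 43 members.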

Additional observations from a re-analysis of the deposited data

How the results depend on the processing

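No paired analysis was possible because the sample titles share no number between the conditions and no source says that equal column numbers mark pairs. The count of members called lower, 22, was 14 with 1 surrogate variable, 13 at an adjusted p under 0.01 and 2 against a fold of 1.2, and 12 to 23 when 1 library was left out. It lay between 18 and 25 with DESeq2, limma-voom, other scalings, other filters and no robust estimation. The count called higher was 0 in all 19 alternatives. Over all tested genes 549 were lower and 640 higher, against 365 and 425 with 1 surrogate variable, 280 and 344 at an adjusted p under 0.01, and 45 and 65 against a fold of 1.2. The members' median log2 fold change of -0.19 was -0.17 with at least 50 counts in 4 libraries, and -0.20 to -0.16 when 1 library was left out; that filter left 34 members. Among members not called, Rsad2, Xaf1 and Adar were each called lower in 3 alternatives, and 3 others changed sign. Ddx58 was at -0.006 with no filter and at -0.0283 to 0.0374 when 1 library was left out, Stat2 at -0.0387 to 0.0135 and Rtp4 at -0.0205 to 0.3582 (log2). The cause was not tested. Depth limits members under 1 CPM, such as Rsad2, Ifi44, Ifit3 and Rtp4, whose intervals are wide.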
